A study of Homo sapiens with 3 samples.

Results

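Cells exposed to colossolactone H for 24 h were compared with cells exposed for 12 h, which sets 2 of the 3 arrays of the series against each other. Colossolactone H is a triterpenoid of the fungus Ganoderma colossum, given at 40 μM to NCI-H1650 cells, an established line from a human lung adenocarcinoma. The third array held untreated cells and serves here as the base from which each response is followed. For each treated group, 1000000 cells were plated in a 10 cm dish before the compound was added, and every array was made from 6 μg of Trizol-extracted RNA. The labels name no vehicle and do not say when the control was collected, and each treated time lacks a control of its own, so time with the compound and time in culture cannot be told apart. Each group held 1 array, hence no difference below has an error or a p-value, and the number of arrays limits the precision of all of them. The comparison covers every gene with a probe set of its own, 19775 genes, of which 12351 were measured, that is, above a signal of 61.4 (the median of all values, used as a floor) on at least 1 array. A probe set is a group of short probes for one transcript, and a gene takes the value of its brightest one. Differences are on the log2 scale of the deposited signal, on which 1 is 2-fold.

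Cells monitor cholesterol in the endoplasmic reticulum, where INSIG proteins hold back the transcription factor SREBP2, and when sterol is short SREBP2 switches on the enzymes of cholesterol synthesis and the proteins of sterol uptake. Shortage of amino acids, haem or folding capacity acts through the factor ATF4, which drives amino acid synthesis and transport, and unfolded proteins in the reticulum raise chaperones through XBP1 and ATF6. NRF2 controls genes that handle oxidants and electrophiles. Genes of mitosis are repressed in resting cells by the DREAM complex and switched on late in the cycle by B-MYB and FOXM1, largely through a CCAAT box and a nearby cell cycle homology region, while genes of DNA replication answer earlier to E2F.

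Promoters are shown first for some of the genes whose step between 12 h and 24 h the results describe. All windows are 120 bases long, come from RefSeq on GRCh38.p14, run 5′ to 3′ in the direction of the gene and end upstream of its start. Capitals in the first set mark a CCAAT box (CCAAT or its complement) and a cell cycle homology region (TTTGAA or its complement), in 5 genes of mitosis that were lower at 24 h than at 12 h.
KIF18A (chr11:28108157-28108276, minus strand): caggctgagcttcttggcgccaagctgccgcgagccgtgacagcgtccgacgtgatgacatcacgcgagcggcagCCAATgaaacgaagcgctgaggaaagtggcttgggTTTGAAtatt
CDC25C (chr5:138331805-138331924, minus strand): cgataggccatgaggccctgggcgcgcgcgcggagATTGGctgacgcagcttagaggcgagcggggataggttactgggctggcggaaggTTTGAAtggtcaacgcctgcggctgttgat
KIF11 (chr10:92593010-92593129, plus strand): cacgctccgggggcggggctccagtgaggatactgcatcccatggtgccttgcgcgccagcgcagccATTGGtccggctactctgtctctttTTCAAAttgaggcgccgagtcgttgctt
ESPL1 (chr12:53268179-53268298, plus strand): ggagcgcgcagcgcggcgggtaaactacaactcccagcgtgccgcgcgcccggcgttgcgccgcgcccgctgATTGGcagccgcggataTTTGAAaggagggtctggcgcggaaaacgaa
PLK1 (chr16:23678769-23678888, plus strand): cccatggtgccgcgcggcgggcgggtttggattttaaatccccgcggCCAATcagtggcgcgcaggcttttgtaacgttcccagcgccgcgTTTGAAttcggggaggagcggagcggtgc
From 12 to 50 bases separate the CCAAT box from the homology region in these 5 windows, with 12 in ESPL1, 20 in KIF11, 30 in KIF18A, 39 in PLK1 and 50 in CDC25C. Every window shown holds both strings, so the 5 do not stand for the list or for its largest steps. AURKB (step -0.62) is not shown, while PLK1, whose step was under 1.5-fold, is. Of 49 mitosis genes with a promoter of 250 upstream bases, 27 (55.1%) hold TTTGAA on either strand, against 12.1% of 10057 measured genes, and 38 (77.6%) hold CCAAT, against 41.5%. The other form of the homology region, TTCGAA, was in 1 of 49. Genes of DNA replication differed in this, with TTTGAA in 1 of 41 (2.44%) and the E2F site TTTNNCGC in 19 of 41 (46.3%), against 11.2% of measured genes. A match is a string of letters and not a bound site, and no factor was measured.

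The second set holds 4 genes of cholesterol synthesis and uptake whose higher signal at 12 h had waned by 24 h, with CCAAT boxes (either strand) in capitals.
INSIG1 (chr7:155297648-155297767, plus strand): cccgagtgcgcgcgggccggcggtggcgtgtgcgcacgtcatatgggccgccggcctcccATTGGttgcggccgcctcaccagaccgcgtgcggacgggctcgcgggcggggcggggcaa
MVD (chr16:88663117-88663236, minus strand): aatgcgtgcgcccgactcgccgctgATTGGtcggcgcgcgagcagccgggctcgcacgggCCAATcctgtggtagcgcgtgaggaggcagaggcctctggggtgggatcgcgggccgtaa
HMGCS1 (chr5:43313453-43313572, minus strand): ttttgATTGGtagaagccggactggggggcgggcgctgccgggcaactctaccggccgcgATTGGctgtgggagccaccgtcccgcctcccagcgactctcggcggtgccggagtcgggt
STARD4 (chr5:111512606-111512725, minus strand): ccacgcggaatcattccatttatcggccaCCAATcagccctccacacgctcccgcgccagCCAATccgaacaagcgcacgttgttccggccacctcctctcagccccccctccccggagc
Of 17 genes of that list with a promoter, 16 (94.1%) hold CCAAT in 250 bases, against 41.5% of measured genes. CCAAT is the site of NF-Y, a factor that works beside SREBP2. The sterol regulatory element in the form TCACNCCAC was in 1 of 17 and in 1 of 12 lipid synthesis genes, against 1.17% of measured genes.

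The third set holds metallothioneins, which were lower at 24 h, with metal response elements (TGCACNC and TGCGCNC, either strand) in capitals, and the fourth holds ATF4 targets that stayed high, with the amino acid response element (TGATGNAA, either strand) in capitals.
MT2A (chr16:56608464-56608583, plus strand): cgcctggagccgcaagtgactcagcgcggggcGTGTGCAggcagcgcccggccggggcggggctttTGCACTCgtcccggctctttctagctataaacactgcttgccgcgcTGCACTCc
MT1H (chr16:56669694-56669813, plus strand): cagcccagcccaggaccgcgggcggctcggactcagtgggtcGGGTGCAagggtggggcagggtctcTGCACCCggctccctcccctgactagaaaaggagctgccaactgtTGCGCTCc
CHAC1 (chr15:40953221-40953340, plus strand): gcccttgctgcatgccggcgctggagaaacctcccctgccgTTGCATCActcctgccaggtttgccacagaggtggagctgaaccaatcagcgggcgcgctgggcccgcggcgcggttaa
CEBPG (chr19:33373993-33374112, plus strand): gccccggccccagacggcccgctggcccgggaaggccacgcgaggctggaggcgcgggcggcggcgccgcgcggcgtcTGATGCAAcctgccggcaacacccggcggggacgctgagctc
TGCACNC was in 4 of 6 promoters of metallothioneins and zinc genes (66.7%, against 13.1% of measured genes) and TGCGCNC in 3 of 6 (50%, against 31.8%). The amino acid response element was in 7 of 33 promoters of ATF4 targets (21.2%), against 2.4% of measured genes. Among 19 promoters of homologous recombination genes 3 held the E2F site (15.8%), among 23 of NRF2 targets 6 held the antioxidant response element TGACNNNGC (26.1%, against 16.1%), and among 28 of reticulum genes 21 held CCACG (75%, against 51.8%).

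Few genes differed strongly between the treated arrays. At 24 h 18 of 12351 genes were 2-fold or more higher than at 12 h (0.146%) and 22 were 2-fold or more lower (0.178%). At 1.5-fold the counts were 180 higher (1.46%) and 236 lower (1.91%), and by any amount 46.3% of genes were higher and 51.7% lower, with a median of -0.01. The spread of single genes depended on signal, since the robust SD of the log2 difference was 0.31 in the 3088 dimmest genes and 0.13 in the 3088 brightest. Of the 40 genes past 2-fold, 32 were among the 3088 dimmest, 11 lay at the floor on 1 of the treated arrays, and 5 had more than 1 probe set above the floor, which moved the same way in 4. The 2-fold counts rest on the floor: with a floor at the 65th percentile 5 genes were higher and 1 lower.

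**Figure D1:**
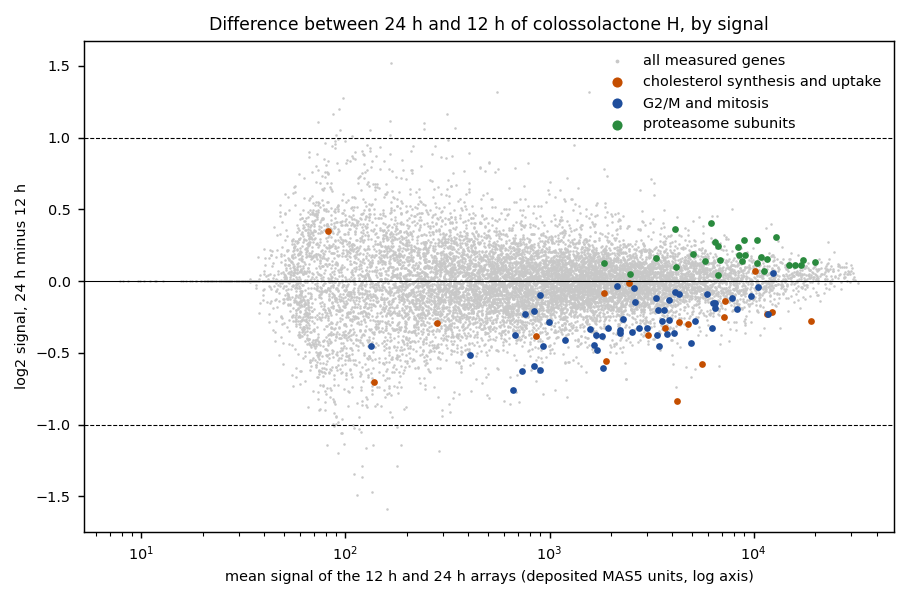
Each grey point is 1 of 12351 measured genes, with its mean signal on the treated arrays on a log axis and its log2 difference (24 h minus 12 h) on the vertical axis, and dashed lines at 2-fold. Proteasome genes (green) sit above 0, mitosis genes (blue) below 0 with CKS1B as the exception, and cholesterol genes (orange) below 0 except FDPS and TM7SF2.

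Responses were sorted by time. A gene entered if it was 2-fold or more from control at 12 h or at 24 h, as 209 genes were. It was called persisting if its step between the times was under 1.5-fold, waning if a 2-fold difference at 12 h was followed by a step of at least 1.5-fold back, growing if a difference of at least 1.5-fold at 12 h went on by such a step, and beginning otherwise. The 12 h array enters both the first difference and the step, and the control enters both differences from control, so chance error on 1 array moves genes between these classes. Persisting responses were the most frequent, with 75 genes higher (0.607% of measured genes) and 66 lower (0.534%). The name covers the small step only: 50 of these 141 genes were 2-fold from control at both times, 32 at 12 h alone and 59 at 24 h alone. Of all 109 genes 2-fold from control at 12 h, 52 were so at 24 h too, 29 higher and 23 lower. Waning held 8 genes that had been higher (0.0648%) and 19 that had been lower (0.154%). Growing held 1 higher (0.0081%) and 8 lower (0.0648%), and beginning held 15 higher (0.121%) and 17 lower (0.138%). Median signal was 347 in the persisting higher class and between 121 and 136 in the waning, persisting lower, growing lower and beginning lower classes, that is, about 2 times the floor. At the floor on at least 1 array were 9 of 75 persisting higher and 16 of 66 persisting lower genes. The same held for 4 of 8 waning higher, 6 of 19 waning lower, 1 of 8 growing lower, 3 of 15 beginning higher and 2 of 17 beginning lower genes. Where both treated arrays were at the floor, as for AQP6, HCN2 and MMP12, the floor itself set the step to 0. Of 55 genes 2-fold higher at 12 h (0.445%), 41 differed less from control at 24 h, as did 39 of 54 genes 2-fold lower (0.437%). Genes picked for a large difference on 1 array tend to differ less on another, so these counts do not show waning. In the other direction, of 73 genes 2-fold higher at 24 h (0.591%) 29 were so at 12 h. Of 79 genes 2-fold lower at 24 h (0.64%), 23 were so at 12 h.

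**Figure D2:**
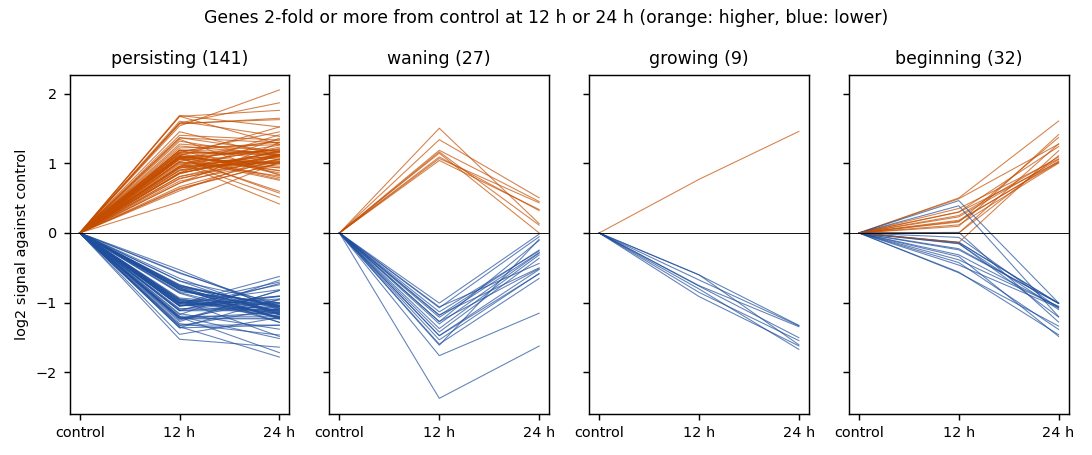
Log2 signal against control is drawn for the 209 genes that were 2-fold or more from control at either time, 1 line a gene, orange where higher and blue where lower. The 141 persisting genes have steps between -0.58 and 0.58 after 12 h, the 27 waning genes turn back towards 0, and the 32 beginning genes lie between -0.57 and 0.50 at 12 h and at least 2-fold from control at 24 h.

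The sterol response waned. Of 19 measured genes of cholesterol synthesis and uptake 17 were lower at 24 h than at 12 h (background 51.7%), with a median of -0.29, after a median of 0.52 above control at 12 h, and the median at 24 h was still 0.27 above control. FDPS, farnesyl diphosphate synthase, at 0.07 and TM7SF2, a sterol reductase near the floor, at 0.35 were the exceptions. Of 17 members above control at 12 h, 16 stood closer to it or beneath it at 24 h, and 2 of the 17, INSIG1 and STARD4, were beneath it. Taking members above control at 12 h itself favours a smaller difference at 24 h.

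INSIG1 (Entrez gene 3638), the reticulum protein that restrains SREBP2, gave a signal of 3691 before treatment, then 5411 at 12 h and 3037 at 24 h. It was thus highest at 12 h and lowest at 24 h, with a step of -0.83, and its 3 probe sets gave steps from -1.08 to -0.36. HMGCS1 (Entrez gene 3157), which makes HMG-CoA for the pathway, gave 3466, 6679 and 4481, a step of -0.58, matched by its second probe set at -0.62. MVD, mevalonate decarboxylase, gave 83.0, 171 and 105, a step of -0.70 in a dim gene with 1 probe set. STARD4, a carrier of cholesterol between membranes, gave 1931, 2256 and 1530, a step of -0.56. INSIG1 and MVD were the 2 members past 1.5-fold, and INSIG1 and STARD4 ended lower than in the control while HMGCS1 and MVD stayed above it. SQLE, squalene epoxidase and a bright gene at 9824, 13183 and 11326, differed by -0.22, but its 4 probe sets ranged from -0.45 to 0.26. SREBF2, which encodes SREBP2 itself, was below control at both times, with 349.5, 309 and 252.5.

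Lipid synthesis genes moved less together. Of 13 measured 8 were lower (background 51.7%), with a median of -0.09, and none reached 1.5-fold. ACSS2, which makes acetyl-CoA from acetate, gave 1482, 2785 and 1878 (step -0.57), and LPIN1, the phosphatidate phosphatase lipin, gave 895, 1879 and 1354 (step -0.47, with -0.31 from its second probe set). FASN, fatty acid synthase, was at 914, 1058 and 913. ME1, malic enzyme, which feeds NADPH to lipid synthesis and is also a target of NRF2, went the other way with 2765, 4986 and 6275, a step of 0.33, while its second probe set was at -0.01.

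Among 8 measured targets of the liver X receptors, which sense oxysterols, the median was -0.05, with 3 higher and 5 lower. ABCA1 (Entrez gene 19), the pump that exports cholesterol to apolipoproteins, gave 819 untreated, 158 at 12 h and 266 at 24 h. By its brightest probe set the loss was largest at 12 h and partly regained, a step of 0.75, but its second probe set above the floor gave -0.45, so the direction of the step is uncertain. APOE, the lipoprotein ligand, gave 139, 229 and 133, a step of -0.78, and its second probe set gave 0.23. NR1H3, the receptor LXR-alpha itself, was higher at each time, at 155, 290 and 349.5 (step 0.27), and MYLIP, an E3 ubiquitin ligase, was at 840, 543 and 645, with steps from 0.19 to 0.71 over 4 probe sets.

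**Figure D3:**
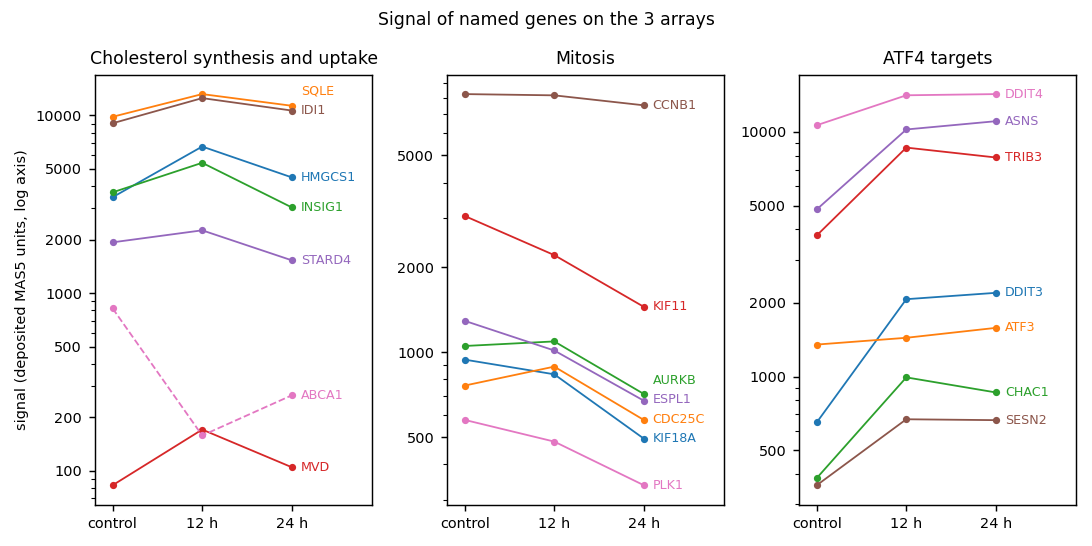
Signal on the 3 arrays is drawn on log axes for named genes of cholesterol synthesis and uptake, mitosis and the ATF4 response, with lines joining the arrays in the order control, 12 h, 24 h. The cholesterol genes peak at 12 h, ABCA1 (dashed) has its lowest value there, the mitosis genes have their lowest value at 24 h, and the ATF4 targets hold at 24 h what they had reached by 12 h.

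The ATF4 response persisted. Its 40 measured members had a median of 0.56 above control at 12 h and 0.68 at 24 h, and the median step was 0.02, with 23 higher, 17 lower and none past 1.5-fold in either direction. The 2 comparisons share the control array, and 10 members were 2-fold above it at 12 h (0.445% of measured genes) and 10 at 24 h (0.591%). Of these, 8 passed at both times (0.235% of measured genes), namely ASNS, CBS, CHAC1, DDIT3, GDF15, NUPR1, PCK2 and TRIB3, while PHGDH, PSPH, SLC1A4 and WARS1 passed at 1 time. DDIT3 (Entrez gene 1649), the stress factor CHOP, gave 649.5, 2071 and 2199, a step of 0.09. ATF4 itself was bright at 11494, 18391 and 19404 (step 0.08). CBS, the first enzyme of the transsulfuration route, gave 447, 1322 and 1399, and its 3 probe sets had steps from 0.00 to 0.20. GDF15, a secreted stress cytokine, gave 133, 398 and 487, the highest step of the list at 0.29. Both treated arrays were far above control in these genes and close to each other.

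The steps of single ATF4 targets, all under 1.5-fold, ran from -0.32 to 0.29. PSPH, the last enzyme of serine synthesis, gave 2176, 4622 and 3715.5, a step of -0.32 that reached -0.72 in another of its 3 probe sets. CHAC1, which degrades glutathione, gave 384, 992 and 861 (step -0.20). WARS1, the tryptophanyl-tRNA synthetase, gave 2161.5, 3925.5 and 4685 (step 0.26, with 0.31 from its second probe set), and PHGDH, the first enzyme of serine synthesis, gave 1647, 3000.3 and 3508 (step 0.23). ALDH18A1, the first enzyme of proline synthesis, was at 2686, 2544 and 3097 (step 0.28). ATF3, a stress factor that often accompanies CHOP, stayed near its control level with 1351, 1440.1 and 1581. Aminoacyl-tRNA synthetases, many of which are ATF4 targets, had a median step of 0.05, with 13 of 17 higher, from AARS1 at -0.29 (5099, 8186 and 6714) to FARSA at 0.27.

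The list of reticulum folding and unfolded protein response genes held too, with medians of 0.21 and 0.24 above control at 12 h and 24 h and a median step of 0.03 (17 of 32 higher). HSPA5, the chaperone BiP, gave 13605.5, 21919 and 23108. MANF, a secreted stress protein of the reticulum, gave 4100.2, 5815 and 4881.5 (step -0.25), and HYOU1, a chaperone of the reticulum, gave 1588, 1827.5 and 2185 (step 0.26). ATF6, a sensor of unfolded proteins, was at 428, 512 and 608.5, but its 4 probe sets ranged from -0.31 to 0.25.

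The 1 member of that list past 1.5-fold was HSP90B1 (Entrez gene 7184), the HSP90 of the reticulum, at 2825.0 in untreated cells, 3150.2 at 12 h and 7303 at 24 h. It was the 1 gene past 2-fold among the 3088 brightest, with a step of 1.21, and its second probe set gave 0.97. A pair of brighter probe sets that the annotation assigns to HSP90B1 together with a second gene did not share a pattern, since one gave 3126, 3559 and 9842 and the other, the brightest of all, 15872, 17572 and 17864 (step 0.02). What these probe sets read differently was not tested.

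NRF2 targets split. Of 29 measured 19 were higher (background 46.3%) and 10 lower at 24 h, with a median step of 0.07, while the median above control was 0.27 at 12 h and 0.48 at 24 h. HMOX1 (Entrez gene 3162), which degrades haem, had its highest value at 12 h, with 1146, 3656 and 2768 (step -0.40). AKR1C3, an aldo-keto reductase, was also highest at 12 h and nearly as high at 24 h, with 201, 419 and 404 (step -0.05), and it was 2-fold above control at both times, as were HMOX1 and PGD. Other reductases had their highest value at 24 h. AKR1B10, of the same family, gave 462.5, 391 and 599 (step 0.62), AKR1C1 gave 489, 546 and 800 (step 0.55, with 0.81 from its second probe set), and AKR1C2 gave 250, 324 and 430 (step 0.41). AKR1C1 and AKR1C2 are nearly identical in sequence, so their probe sets may share signal. GSR, glutathione reductase, gave 781, 1005 and 1302 (step 0.37), and BLVRB, biliverdin reductase B, gave 7778, 10508 and 13824 (step 0.40). SRXN1, sulfiredoxin, gave 2636, 3510 and 4382 (step 0.32). NQO1 and TXNRD1, bright in all arrays, differed by 0.08 and 0.09. TRIM16L, a gene close in sequence to TRIM16, gave 171, 172 and 70.4, a step of -1.29 down to near the floor, whereas TRIM16 was at 2478, 4000.3 and 3582.5.

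Mitosis genes showed the reverse timing. Of 54 measured, 53 were lower at 24 h than at 12 h (background 51.7%), with a median of -0.31, and CKS1B at 0.06 was the exception. At 12 h their median was 0.18 below control, and 11 were above it. At 24 h it was 0.46 below control, and 36 of the 51 members below control had covered the larger part of that distance after 12 h. Both parts of the distance use the same 12 h array, and the split was not counted over all measured genes. These arrays hold bulk RNA, in which fewer dividing cells and less RNA per cell cannot be told apart.

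The 5 members past 1.5-fold were KIF18A, CDC25C, AURKB, KIF11 and ESPL1, against 1.91% of measured genes at that size. KIF18A, a kinesin that damps chromosome movement at the spindle, gave 941, 835 and 493.5 (step -0.76). CDC25C, the phosphatase that activates CDK1 at entry into mitosis, gave 761, 889 and 575 (step -0.63), and AURKB, the kinase of the chromosomal passenger complex, gave 1052, 1092 and 711 (step -0.62, with -0.31 from its second probe set). Both were above control at 12 h and below it at 24 h. KIF11 (Entrez gene 3832), the motor that separates spindle poles, was lower at each time, with 3043.5, 2211 and 1449 (step -0.61). ESPL1, separase, gave 1292, 1014 and 673 (step -0.59, with -0.20 from its second probe set).

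PLK1, a kinase of mitotic entry and exit, gave 575, 482 and 337 (step -0.51). MKI67, the proliferation antigen Ki-67, gave 1439.6, 1075 and 785, and its 4 probe sets had steps from -0.66 to -0.25. TOP2A, the topoisomerase of chromosome condensation, gave 7295, 5679 and 4219.5, with steps from -0.51 to -0.03 over 3 probe sets. CCNB1, cyclin B1, hardly took part, with 8243, 8159 and 7521 (step -0.12), and CDC20, PTTG1 and CCNB2 were likewise within 0.11 of their 12 h values. Single dim probe sets went against the list, as in ASPM, whose brightest probe set gave -0.37 and another 1.02, and in GTSE1 at -0.03 and 1.02.

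Replication genes were ahead of mitosis genes in time. Of 47 measured, 34 were lower at 24 h than at 12 h (background 51.7%) and 13 higher, with a median of -0.11, but their median was already 0.33 below control at 12 h and 45 of 47 were below it. Of the 46 below control at 24 h, 35 had covered the larger part of that distance by 12 h, a split likewise not counted over all measured genes. The largest further steps downwards included regulators of the E2F family. E2F8 (Entrez gene 79733), a repressor, gave 1086, 577 and 353 (step -0.71), E2F1, an activator, gave 540.1, 429.5 and 289 (step -0.57, with -0.29 from its second probe set), and E2F7 gave 1600.1, 920.3 and 680.3 (step -0.44). CDT1, the licensing factor, gave 1569.6, 1543.5 and 1053, and CHAF1A, the large subunit of a histone chaperone, gave 635, 486 and 341, but second probe sets of both went the other way, by 0.60 and up to 0.90.

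Other replication genes stopped at their 12 h value or came back in part. UHRF1, which copies DNA methylation, gave 2802, 1361.5 and 1493 (step 0.13), MCM3, a subunit of the replicative helicase, gave 3446.5, 1974 and 2201 (step 0.16), and FEN1, the flap nuclease, gave 5137, 3096 and 3286 (step 0.09). CCNE1, cyclin E1, gave 1581, 1249 and 1605, the highest step of the list at 0.36, and ended at its control level. In homologous recombination and Fanconi repair 19 of 22 were lower (background 51.7%), with a median step of -0.19 and a median of -0.31 from control at 12 h. RAD51AP1, a partner of the recombinase, gave 5486, 5061 and 3679 (step -0.46), and RAD54B gave 1703, 1600 and 1167 (step -0.45). XRCC2 at 0.71 and FANCE at 0.50, both dim at 12 h with 198 and 139, were higher at 24 h.

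**Figure D4:**
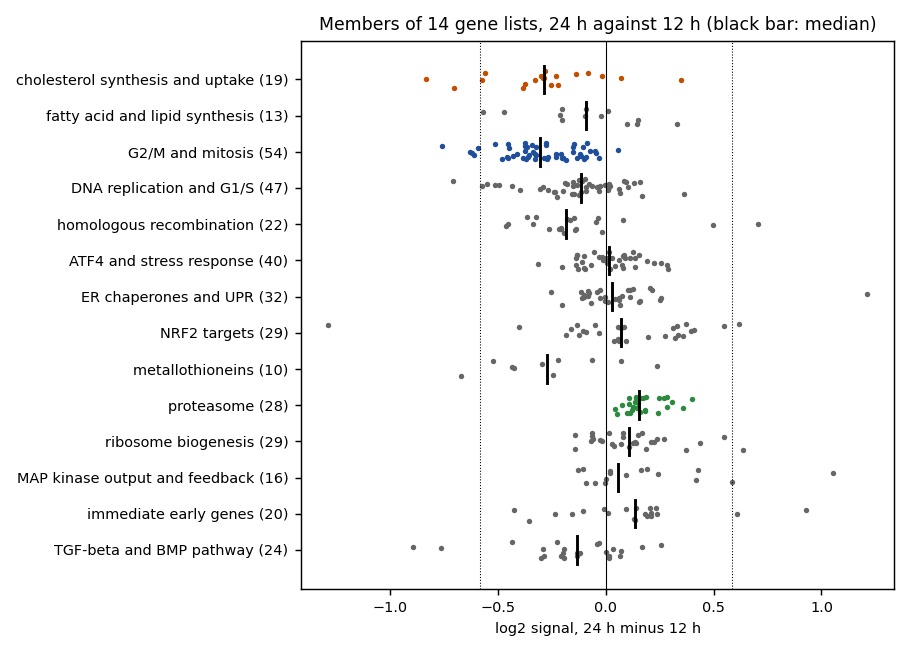
Each point is a measured member of 1 of 14 gene lists, with its log2 difference (24 h minus 12 h) on the horizontal axis, black bars at the list medians and dotted lines at 1.5-fold. Proteasome members all lie right of 0 by their brightest probe sets, mitosis and cholesterol members lie left of 0 but for 1 and 2 genes, and ATF4 targets straddle 0.

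Proteasome subunits were higher at 24 h by their brightest probe sets. All 28 measured subunits of the list were above their 12 h value (background 46.3%), by 0.04 to 0.40 with a median of 0.15, and none reached 1.5-fold. Of 14 with at least 2 probe sets above the floor, 3 had one that was lower, PSMB4 (down to -0.22), PSMC2 (-0.10) and PSMB2 (-0.06). The median of the 28 above control was 0.12 at 12 h and 0.31 at 24 h. PSMD11, a subunit of the lid, gave 5007, 5335 and 7050 (step 0.40, with 0.03 from its second probe set). PSMC4, an ATPase of the base, gave 2992.5, 3589 and 4608 (step 0.36), PSMA4, a subunit of the core ring, gave 11246, 11527 and 14274 (step 0.31), and PSMC6 gave 7080.5, 8063 and 9829 (step 0.29). Subunits of the lid, base and core were thus all among the leaders.

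Cytosolic heat shock proteins leaned the same way, with 13 of 19 higher (background 46.3%) and a median of 0.08. STIP1, which links HSP70 to HSP90, gave 1682.5, 1932 and 2643, but its second probe set was at -0.25. HSPA6, a strictly inducible HSP70, gave 138, 298 and 396 (step 0.41, but -0.12 from its second probe set). HSPB8, a small heat shock protein, gave 1221, 1806 and 2254 (step 0.32 and 0.59 from its 2 probe sets), and BAG3, its partner in selective autophagy, gave 6431, 5796 and 7116. Of 16 promoters in this list 5 (31.2%) hold the heat shock element, against 0.457% of measured genes. SQSTM1, the autophagy receptor p62, gave 1795, 2460 and 3273.5 (step 0.41), though its 4 probe sets ranged from -0.07 to 0.41.

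Ribosome biogenesis genes were mostly higher at 24 h than at 12 h, by small amounts. Its 29 measured genes had a median of -0.08 from control at 12 h and 0.01 at 24 h, a median step of 0.11 with 21 higher (background 46.3%), and 13 were still below control at 24 h. POLR1A, the largest subunit of RNA polymerase I, was the 1 member 2-fold from control, lower at both times (0.437% of measured genes were so at 12 h and 0.64% at 24 h), with 565, 225 and 265 (step 0.24, with steps down to -0.05 from its other probe sets). LYAR, a nucleolar factor of pre-rRNA processing, gave 1195, 883 and 1372 (step 0.64, with 0.15 from its second probe set), and was the 1 member past 1.5-fold. NOP16 gave 2145, 1523.5 and 2224 (step 0.55, with -0.19 from its second probe set), and RRP12 gave 654.5, 570.5 and 738 (step 0.37, but -0.61 with transcript-specific probe sets). By these values all 3 were below control at 12 h and above it at 24 h, but they were named for the size of their steps, which favours this pattern. Cytosolic ribosomal proteins, by contrast, had a median step of 0.03, from -0.21 to 0.27.

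Targets and brakes of ERK signalling, early response genes and epithelial cytokines held a few genes that were below control at 12 h and higher at 24 h. SPRY4 (Entrez gene 81848), a feedback inhibitor of receptor tyrosine kinases, gave 126, 86.1 and 179, a step of 1.06. EPHA2, an ephrin receptor induced by ERK, gave 1094, 852 and 1281 (step 0.59), and DUSP5, a phosphatase of ERK, 887, 620 and 828 (step 0.42). DUSP4 gave 152, 143 and 192 (step 0.43, but down to -0.11 over its 3 probe sets). LIF and IL11, cytokines that signal through gp130, gave 146, 109.5 and 170 and 177, 132 and 204.5, steps of 0.63 each. All 6 genes were named for the size of their steps, so their place below control at 12 h is partly set by that choice. SPRY4, EPHA2, DUSP4, LIF and IL11 were above control at 24 h. The share of all measured genes with this pattern was not counted. NR4A1, an orphan nuclear receptor and early gene, gave 142, 60.8 and 117, at the floor at 12 h, so that its step of at least 0.93 is a bound. NR4A3 was at the floor until 12 h and at 93.6 at 24 h, a step of at least 0.61. Other members went the opposite way, above control at 12 h and lower again at 24 h. KLF2 gave 149, 237 and 177 (step -0.42). NR4A2 gave 174.5, 237 and 185 (step -0.36, but up to 0.15 over its 3 probe sets). The cytokine CXCL3 was above the floor at 12 h alone, at 76.5, a fall of at least 0.32. The lists as wholes moved little, with median steps of 0.06 for 16 ERK genes (11 higher), 0.14 for 20 early genes (14 higher) and 0.13 for 21 cytokine genes (14 higher). Of all measured genes 46.3% were higher. EGFR itself was at 2973, 2387 and 2695, with steps from -0.22 to 0.18 over 4 probe sets.

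Metallothioneins, small proteins that bind zinc and copper, were lower at 24 h. Of 10 measured genes of the list, zinc transporters included, 8 were lower (background 51.7%), with a median step of -0.27. MT2A (Entrez gene 4502) gave 6327, 6038 and 3793, so that control and 12 h were close and 24 h stood apart (step -0.67). MT1F gave 814, 948 and 659.5 (step -0.52, with -0.14 from its second probe set), MT1H 1441, 1203 and 890 (step -0.44) and MT1X 3721, 3116.5 and 2319 (step -0.43, with -0.19). These genes are close in sequence, so a probe set may read more than 1 of them, which was not tested, and with transcript-specific probe sets alone the list median was 0.00. MT3 was measured at 24 h alone, at 72.5, and MTF1, the factor that induces the family, was at 1020, 995 and 1045.5.

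In the TGF-beta and BMP pathway 16 of 24 were lower (background 51.7%), with a median step of -0.13, which became 0.00 when the median over a gene's probe sets was taken. SMAD6 (Entrez gene 4091), an inhibitor of BMP signalling, gave 776, 522 and 307 (step -0.77) and TGFB2, a TGF-beta ligand, 833, 328 and 242.5 (step -0.44, with 0.31 from its second probe set). ID2, an inhibitor of differentiation factors, gave 90.1, 114 and 35.8, below the floor at 24 h. IGFBP3, THBS1 and SOX4, described next, are not members of this list. IGFBP3, which binds insulin-like growth factors, gave 5935, 5189 and 3109, and its 2 probe sets had steps of -0.74 and -0.76. THBS1, the matrix protein thrombospondin 1, gave 10159, 7899 and 5839, with steps from -0.68 to -0.21 over 4 probe sets. SOX4, a transcription factor of epithelial plasticity, gave 1586, 1344 and 795.5, with 4 probe sets from -0.76 to -0.08.

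Of the other genes with the largest steps, few had support from a second probe set of their own. F2R, the thrombin receptor, gave 424.9, 424.8 and 226, with steps of -0.91 and -0.49, CCNF, cyclin F, gave 656, 646 and 368 with -0.81 and -0.09, and GATM, the first enzyme of creatine synthesis, gave 176, 235 and 141 with -0.74 and -0.39. VASH2, which trims the tail of alpha-tubulin, gave 95.3, 180 and 98.4, with -0.87 and -0.57, and had thus returned to control. Upwards, FAM111B, a protease, gave 420, 235 and 430.3, with steps of 0.87 and 0.65 that brought it back to control, and DIO2, the deiodinase that activates thyroid hormone, gave 97.1, 79.7 and 144 with 0.85 and 0.40. C1QTNF6, ECHDC2, TLE6, TMEM147-AS1 and RAD54L2 among the lower genes and ATF5, ANKRD17, ANKRD36, CNST, FNDC5, MPHOSPH8, GUSBP4, ZNF37BP and UBN1 among the higher ones had a second probe set with the same direction, and in C1QTNF6, ECHDC2, RAD54L2, ATF5, GUSBP4 and MPHOSPH8 at least 1 of these steps was under 0.1. With transcript-specific probe sets TLE6 was at 0.13, and over the median of its probe sets ATF5 was at -0.14. In all, 47 of the 92 genes past 1.5-fold that had at least 2 probe sets above the floor agreed over all of them, 23 higher and 24 lower.

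Single genes of the time classes ran as follows. Persisting and far from control were SEL1L3, at 62.4, 181 and 259, PACSIN3, an endocytosis adaptor, at 134, 430.0 and 383.5, and SLFN5, at 180, 547 and 471 (steps from -0.50 to 0.59 over 5 probe sets), among the higher ones. Among the lower ones were RAP1GAP2, which switches off RAP1, at 2026.5, 739 and 874, STEAP4, a metalloreductase, at 1046, 407 and 417, COL15A1, a basement membrane collagen, at 339, 118 and 109, FAT3, a giant cadherin, at 244, 106 and 74.2, and CYP1A2 at 255.5, 111 and 89.4. Waning were CACNG4, at 444, 147 and 282, TIMM8A, a mitochondrial import chaperone, at 269, 109 and 220.4, ZDHHC8, a palmitoyl transferase, at 242, 87.3 and 168, and ERN2, the epithelial form of IRE1, at 263, 86.2 and 247, whose step of 1.52 was the highest of all measured genes. NOVA2, A1BG-AS1 and GUSBP11 waned from 160, 168 and 178 at 12 h to 77.2, 101 and 114. Growing were KCTD6, at 451, 769 and 1239 (steps of 0.69 and 0.22 from its probe sets), KRT15, a basal keratin, at 347, 192 and 119, SFRP1, a secreted WNT inhibitor, at 220, 145 and 72.2, PLEKHG2 at 273, 156 and 85.6 (step -0.87, but up to 0.42 over its 3 probe sets), LINC01224 at 196, 122.5 and 77.7 and STX17-DT at 303, 179 and 107. Beginning were EIF3C at 109, 154.5 and 332, BRWD3 at 171.5, 186 and 344 (steps from -0.01 to 0.89 over its 3 probe sets), ZNF345 at 82.1, 101 and 194, ALKBH4 at 251, 240 and 119, BRME1, a meiotic recombination factor, at 237, 187.5 and 84.8, MATN3 at 142, 128 and 61.6, ARHGEF17 at 206, 158 and 99.4, SORBS3 at 144, 198.5 and 71.7 and WDR62, a centrosome protein, at 183, 240.1 and 79.7. All of these but KCTD6, RAP1GAP2 and STEAP4 had signals no higher than 547 on any array, and the copies GUSBP4, GUSBP11 and EIF3C have near-identical relatives with which they may share probes.

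A larger count appeared where genes have several probe sets. Of 23715 single-gene probe sets above the floor, 132 were 2-fold or more higher at 24 h than at 12 h (0.557%) and 63 were lower (0.266%). Yet of the 132 only 18 were the brightest of their gene, and the other 114, from 111 genes, had a median step of 1.16 while the brightest probe sets of the same genes had a median of 0.02, with none past 2-fold and 63 of 114 above 0. Median signal was 214 in those 114 and 1677 in their brighter partners. The 41 lower ones had a median step of -1.11 against -0.12 in the partners.

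Bright examples, chosen after their values were seen, were EPRS1, the glutamyl-prolyl-tRNA synthetase, where a second probe set gave 3408, 4948 and 10468 and the brightest 5746, 8206 and 8305, and TOP1, topoisomerase I, with 992, 1183 and 3117 against 6643, 7164 and 7971. EZR, which links the membrane to actin, had 629, 548 and 1825 against 5151, 5754 and 5399, and HSP90AB1 had 1699, 1936 and 5028 against 11996, 12632 and 14885. In each the dimmer probe set was higher at 24 h than on either other array, and the brightest differed by at most 0.24. UBN1, a histone chaperone subunit (979, 890.4 and 2217), and MAP7D3, a microtubule protein (296, 316 and 787), showed the reverse. Their brightest probe sets, which gave these values, had steps of 1.32 each, while a dimmer one gave 0.19 in UBN1 and -0.21 in MAP7D3. What the brightest and dimmer probe sets of a gene read differently was not tested. The ratio of 3′ to 5′ signal of ACTB, a measure of RNA integrity, was 4.95 in untreated cells, 5.38 at 12 h and 6.55 at 24 h, and that of GAPDH was 1.205, 1.251 and 1.237, and the part of this in any result was not tested.

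**Figure D5:**
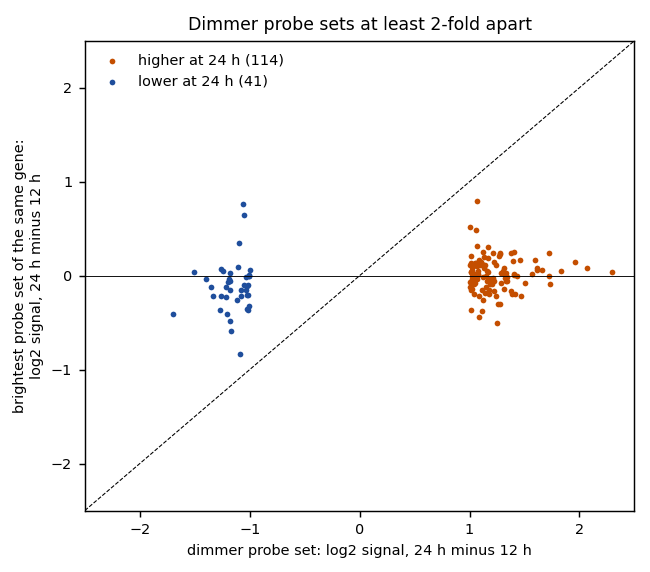
Each point is a probe set that is not the brightest of its gene and differs 2-fold or more between 24 h and 12 h, with its own log2 difference on the horizontal axis and that of the brightest probe set of the gene on the vertical axis. Of the 114 higher points 112 lie within 0.5 of 0 on the vertical axis, as do 37 of the 41 lower ones, and the brightest probe sets range from -0.83 (INSIG1) to 0.79 (AKAP13).

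The arrays were alike in their general properties, with median signals from 60.6 to 61.8 and 49.8% to 50.1% of probe sets above the floor. All 10 general epithelial markers were measured, with a summed signal of 78610 at 12 h and 79190 at 24 h. Of 10 lung and airway markers on the arrays 5 were measured, and NKX2-1, the lung lineage factor, was below the floor on every array. Leukocyte markers were measured in 2 of 12, with PTPRC below the floor throughout. Of 15 fibroblast and endothelial markers 6 were measured, all 6 lower at 24 h than at 12 h (background 51.7%). The summed signal of these markers was 2605 untreated, 2225 at 12 h and 1820.0 at 24 h, with COL1A1 at 730, 689 and 495, while COL1A2, PDGFRA and CDH5 were below the floor. THBS1 and IGFBP3 were lower at 24 h too, but the matrix and mesenchymal list as a whole had a median step of -0.04, with 11 of 28 higher and 17 lower. Any relation between these genes was not tested.

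The remaining lists shifted little as wholes. Median steps lay between -0.15 and 0.05 for YAP targets, interferon response, hypoxia and glycolysis, glucose sensing, circadian clock, p53 targets, cell death genes, oxidative phosphorylation, CCT chaperonin, autophagy and lysosome, histones, splicing factors, matrix genes, junctions and keratins, ERBB receptors and ligands, SLC transporters and the aryl hydrocarbon receptor list. Among clock genes PER3 gave 630, 784 and 493 (step -0.67, with up to 0.02 from its other probe sets) and BHLHE40 1812, 1639 and 1105 (step -0.57). Of p53 targets 12 of 20 were lower (background 51.7%). CDKN1A, the cell cycle inhibitor p21, was at 2904, 3319 and 3029, and POLH, a translesion polymerase, at 493, 397 and 282.5. In interferon genes 21 of 34 were lower (background 51.7%), with RSAD2 at 279, 445 and 326 and OAS1 at 1916, 2728 and 2186, both highest at 12 h. HK2, hexokinase 2, gave 1094, 1255 and 1775 (step 0.50), but its 3 probe sets ranged from -0.20 to 0.50. PDK2, an inhibitor of pyruvate dehydrogenase, gave 147, 235 and 155, with steps of -0.60 and -0.42, AHRR, a repressor of the aryl hydrocarbon receptor, gave 639, 608 and 388 (step -0.65), SLC2A12, a glucose transporter, gave 115, 115.0 and 69.7 (step -0.72), and ZEB1, a factor of mesenchymal conversion, was under the floor until 24 h, at 102. TXNIP, which senses glucose, was at 592, 603 and 504.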

How the data were processed

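Total RNA of NCI-H1650 cells was hybridised to 3 arrays of 54675 probe sets, 1 a group. The deposited values are linear signal intensity made by the authors with MAS5, per the submitters' processing notes, which give no version or settings. Each array had a mean of 500.1 once 2% of values was trimmed at both ends, and no further scaling was applied. The platform annotation gave 1 gene for 41097 probe sets, several for 1801 and none for 11777, and 41043 of the first matched a current record through the Entrez identifier. The brightest single-gene probe set stood for a gene, and signals below the 50th percentile, 61.4, were set to it.

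Differences are log2 ratios of 2 arrays, with no test, since no group had a replicate. Genes were counted at 2-fold and steps at 1.5-fold. The procedure was tested on simulated data. Its planted differences were all in genes well above the floor, so it does not show how well dim genes are sorted. Promoters are 250 upstream bases from RefSeq (GRCh38.p14), matched by symbol. The 8 alternatives were median centring, quantile normalization, cyclic loess (limma 3.58.1, R 4.3.3), floors at the 25th and 65th percentile, no floor with a pseudocount of 1, the median over probe sets, and transcript-specific probe sets. The 36 lists hold 965 genes (868 with a single-gene probe set, 828 measured). Members, lists and rules were chosen with earlier results of these data known.

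Genes were named by size (up to 12 each way with at least 2 agreeing probe sets), up to 6 per class and direction, up to 4 per list, and a preset group. Some of that group are not reported here. Other named genes, among them PLK1, CHAC1, PHGDH, CDC20, PTTG1, CCNB2, ASPM, GTSE1, E2F7, MCM3, FEN1, GSR, BLVRB, SRXN1, AKR1C3, NQO1, TXNRD1, TRIM16, SREBF2, MT3 and MTF1, were chosen after their values were seen.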

Additional observations from a re-analysis of the deposited data

Results flagged for a closer look

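Of the 205 genes named by rule, 5 were above the floor on every array and differed from control by at least 25% (higher over lower signal) in opposite directions at 12 h and 24 h, and the difference between the times was not tested because each had 1 array. Most of the 205 were named for large steps, which favours such reversals, and the share of all measured genes with this pattern was not counted. SPRY4, a brake on receptor tyrosine kinases, was 0.55 below control at 12 h and 0.50 above it at 24 h, a step of 1.06 on the log2 scale. ATF5, a stress-related transcription factor, went from -0.38 to 0.48, a step of 0.86, though its second probe set gave 0.01 and the median over its probe sets was -0.14. WDR62, a centrosome protein, went from 0.39 to -1.20, a step of -1.59. SORBS3, the adhesion adaptor vinexin, went from 0.46 to -1.01, a step of -1.47. RAD54L2, a chromatin remodeller, went from 0.34 to -0.85, a step of -1.18, with -0.06 from its second probe set. All 5 had signals under 403 on every array, and SPRY4, WDR62 and SORBS3 each had 1 probe set above the floor.

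Among 5489 probe sets above the floor that name several genes or none, of which only the pair assigned to HSP90B1 is described above, 10 were above the floor on every array and 2-fold or more above control at both times. Of 12351 measured genes, 29 were 2-fold higher at both times (0.235%), some of them at the floor in the control, so the 10 do not stand out as a count. Of the 5489, 56 were 2-fold or more higher at 24 h than at 12 h and 19 lower. Of 23715 single-gene probe sets, 132 were higher (0.557%) and 63 lower (0.266%).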

How the results depend on the processing

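Of 205 genes named by rule, none changed direction under the scaling and floor alternatives that measured it, while 17 did over the median of probe sets and 7 with transcript-specific probe sets. Those past 1.5-fold were ABCA1 (-0.23), ATF5 (-0.14) and PER3 (0.008) over the median, and PER3 (0.02) and TLE6 (0.13) with transcript-specific probe sets. Scaling by median centring, quantiles or cyclic loess moved the median of all genes by at most 0.03 and kept 38, 38 and 39 of the 40 genes past 2-fold. Medians of the cholesterol, mitosis, proteasome and replication lists kept their direction under all 8, within -0.32 to -0.27, -0.33 to -0.28, 0.12 to 0.16 and -0.14 to -0.09. The metallothionein median became 0.0047 with transcript-specific probe sets, the TGF-beta median 0.00 as the median over probe sets, and that of SLC7, SLC38 and SLC2 transporters 0.0134 with the 65th percentile floor and 0.0159 over probe sets. Counts of genes follow the floor, because dim genes dominate them. With the floor at the 25th percentile 715 genes were 2-fold higher and 774 lower between the times, waning held 393 and 383 (higher and lower), persisting 396 and 498, growing 71 and 110, and beginning 336 and 337. With the 65th percentile these were 5 and 1, 0 and 1, 38 and 28, 2 growing lower, and 6 and 3. With no floor and a pseudocount of 1 they were 129 and 138, 46 and 100, 161 and 124, 24 and 40, and 36 and 81. Over the median of probe sets 8 were waning lower, 0 growing higher, 4 growing lower and 27 beginning higher, and with transcript-specific probe sets 2 were growing higher and 23 beginning higher. No paired analysis was possible because each group held 1 array. Low signal limits all counts, as 32 of 40 genes past 2-fold were among the 3088 dimmest.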
